A study of Mus musculus with 8 samples.

Results

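Regions of chromatin that were called open only in newborn (P0.5) mouse lens epithelium numbered 8568 of 185247 regions, or 4.63%. The lens epithelium is the single layer of cells at the front of the eye lens. It keeps the dividing cells of the lens, and its cells leave the cycle at the equator and become fiber cells. Open chromatin was mapped by ATAC-seq, in which a transposase cuts and tags DNA that nucleosomes leave free, in epithelium and fibers microdissected from lenses of CD1 mice, an outbred stock, of the embryo (E14.5) and of the newborn (P0.5). Each age gave an epithelium and a fiber group, so there were 4 groups with 2 libraries each, and no treatment or mutation separates them. The deposited peak lists pool both libraries of a group, so no spread between libraries can be given, and the intervals below cover counting error over regions that were taken as independent. To find the regions, all peaks of the 4 lists on chromosomes 1 to 19 and X were merged where they lay within 10 bp of each other, and a merged region was kept if it held a P0.5 epithelium peak and no peak of the other 3 lists.

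The 8568 members made up 16.5% of the 51818 merged regions that held a P0.5 epithelium peak. The members were thus chosen by the presence and absence of a call at a q value of 0.05, and a region without a call in a list may still hold some signal there. Fewer cells with an open region cannot be told apart from a region less open in all cells. The lists are of unequal length, with 58487 peaks in P0.5 epithelium, 62903 in P0.5 fibers, 123673 in E14.5 fibers and 99901 in E14.5 epithelium. Per the study's methods, the number of cells put into a library also differed between groups and was highest for P0.5 epithelium. Cell input and group cannot be told apart in these lists. Peak strength, peak width and the pattern over the lists chose the members or go with that choice, and are given as a description only. Place in the genome and base sequence were not used by the rule. The distance to a peak of another list is partly set by it, since no member can lie closer than 11 bp. As a check of the dissected tissue, the promoters of all 7 lens epithelium markers, Foxe3, Pax6, Cdh1, Pitx3, Sox2, Tfap2a and Six3, held a peak in P0.5 epithelium. They did so in the other 3 lists as well, as did those of the 7 fiber markers, so promoter calls do not set epithelium and fibers apart.

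Enhancers mostly lie away from gene starts and hold short motifs that transcription factors read. Nuclear factor I proteins (Nfia, Nfib, Nfic and Nfix) bind as dimers to a palindrome of TTGGC and GCCAA with 5 free bases between them and, more weakly, to the single site TTGGCA. Tead proteins bind GGAATG and recruit the coactivators Yap and Taz, which keep epithelial cells in the cycle. AP-2 proteins, among them Tfap2a, bind GCCNNNGGC and are needed for the lens to form.

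NF1 palindromes were most frequent among the strongest of these regions, so their sequence context is shown first. A looser palindrome with a letter fewer in each arm, TGGC and GCCA with 5 free bases between them, was added after the data were seen. It contains all matches of the full palindrome and can overlap the single site. It was searched on both strands in the 200 bp around each summit, and 241 of the 8568 members held it. The 8 strongest of these, with −log10 q of 14.7 to 18.3, are printed on the plus strand of GRCm38.p6 from RefSeq, with the palindrome in capitals. Adamts3 encodes a protease of procollagen processing, Kcnh1 a potassium channel, Cd69 a lectin of lymphocytes and Dlg2 a scaffold of membrane proteins. The regions at Kcnh1, Megf11, Dlg2, Clmn and Csmd3 lie in the gene, and those at Adamts3, Cd69 and 4930467E23Rik lie 14.3, 37.2 and 22.0 kb from a start or end of it.
Adamts3, chr5:89897631-89897693: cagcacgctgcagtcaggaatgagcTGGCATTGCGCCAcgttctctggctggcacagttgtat
Kcnh1, chr1:192401076-192401138: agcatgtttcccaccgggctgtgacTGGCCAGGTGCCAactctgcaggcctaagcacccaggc
Cd69, chr6:129230127-129230189: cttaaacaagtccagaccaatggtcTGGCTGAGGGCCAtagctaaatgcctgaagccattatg
Megf11, chr9:64506520-64506582: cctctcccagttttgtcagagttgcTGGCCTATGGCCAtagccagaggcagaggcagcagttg
Dlg2, chr7:92126067-92126129: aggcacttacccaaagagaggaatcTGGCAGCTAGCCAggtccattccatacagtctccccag
Clmn, chr12:104824781-104824843: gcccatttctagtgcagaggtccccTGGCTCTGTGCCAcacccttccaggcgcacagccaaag
Csmd3, chr15:48421652-48421714: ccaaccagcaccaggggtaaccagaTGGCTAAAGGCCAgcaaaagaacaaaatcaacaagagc
4930467E23Rik, chr8:19707465-19707527: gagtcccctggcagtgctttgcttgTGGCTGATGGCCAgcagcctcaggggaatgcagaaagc
The next ones are 3 of the 12 members with the full palindrome, whose outer T and A flank the capitals. They were picked for their genes after the values were seen, and stronger ones lie at Shc2 and Ptpro. Txnrd1 encodes a thioredoxin reductase, Bcl6 a transcriptional repressor, and Nfia a Nuclear factor I protein itself.
Txnrd1, chr10:82889738-82889800: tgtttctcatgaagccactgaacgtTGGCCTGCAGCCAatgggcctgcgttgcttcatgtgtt
Bcl6, chr16:23964483-23964545: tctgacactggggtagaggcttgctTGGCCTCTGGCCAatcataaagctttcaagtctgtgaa
Nfia, chr4:97869235-97869297: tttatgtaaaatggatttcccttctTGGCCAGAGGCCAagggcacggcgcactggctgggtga
In the last set each window holds 3 or more Tead matches, shown in capitals on either strand, at the strongest such members with an assigned gene. Cdk14 encodes a cyclin-dependent kinase, Plekha2 a phosphoinositide-binding adaptor and Itln1 an intelectin.
Cdk14, chr5:5342388-5342587: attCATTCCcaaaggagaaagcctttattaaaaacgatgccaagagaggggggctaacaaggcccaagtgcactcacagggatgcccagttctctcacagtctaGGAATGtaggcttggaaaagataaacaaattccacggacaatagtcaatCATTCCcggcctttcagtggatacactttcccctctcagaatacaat
Plekha2, chr8:25098302-25098501: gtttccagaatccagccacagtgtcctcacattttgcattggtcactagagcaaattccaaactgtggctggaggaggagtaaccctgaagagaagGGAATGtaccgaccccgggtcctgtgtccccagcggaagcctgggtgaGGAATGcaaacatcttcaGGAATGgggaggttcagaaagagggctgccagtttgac
Itln1, chr1:171514036-171514235: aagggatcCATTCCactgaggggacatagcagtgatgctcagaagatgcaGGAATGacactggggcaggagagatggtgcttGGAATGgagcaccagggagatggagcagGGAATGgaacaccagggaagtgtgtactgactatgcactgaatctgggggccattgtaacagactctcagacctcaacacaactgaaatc

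The peaks were narrow and weak as a group. The median width was 122.5 bp (quartiles 103 and 159 bp), against 641 bp for the other regions of P0.5 epithelium and 147 bp for the 23901 regions open only in E14.5 epithelium. The median −log10 q was 3.40, with a range of 1.84 to 59.5, and the median fold enrichment over background was 4.25, with a range of 3.40 to 22.5. Of the members, 59.3% had a q value under 0.001. The share was 73.4% of all merged regions, for which the best q value of up to 4 lists was taken, so the shares are not of the same quantity. Fold enrichment in the P0.5 epithelium list took whole multiples of 0.425 (100% of its peaks, within 0.02 of a step), so that many peaks share a value. The lowest value in use, 8 steps, held 1049 members and the next held 2438, together 40.7% of all members. Only 206 members had a −log10 q over 10.

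The limits of the rule fall in this crowded range. Just inside were members in Agap1, in Dot1l and near Kcnj12, each with 11 bp free to the nearest peak of another list. Just outside were P0.5 epithelium peaks in Ephx1, in Sbno2 and in an intergenic part of chromosome 13, each 10 bp from such a peak. In all, 73 members had a gap of 11 to 20 bp, and 108 P0.5 epithelium peaks were left out with a gap of 0 to 10 bp.

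Many members lay close to chromatin that was open in another group. The median distance from a member to the nearest peak of another list was 1.87 kb. A peak of another list lay within 1 kb of 37.8% of members, within 5 kb of 69.3% (95% Wilson interval 68.3 to 70.2) and within 50 kb of 96.3%. Regions open only in E14.5 epithelium had such a neighbour within 1 kb in 42.8% and within 5 kb in 73.8%. These distances are a description, since the rule fixes their lower end and they depend on how many peaks the other lists hold.

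The 3 strongest members were an intergenic region at chr14:19417802-19417895 (−log10 q 59.5, fold enrichment 22.5), a region in the non-coding gene E030030I06Rik at chr10:22142941-22143032 (51.8 and 20.4) and an intergenic region at chr3:8245811-8246007 (44.2 and 18.3). Each had a peak of another list 0.126 to 0.254 kb away, and 98%, 25.5% and 32.5% of their windows was soft-masked as repeat. The part of repeats in their strength was not tested. The next ones held less repeat. They were an intergenic region of 571 bp at chr1:126925353-126925923 (−log10 q 24.6), a region in Fmnl2, an actin-nucleating formin, 32 bp from a peak of another list (23.3), and a region 35.1 kb from Dipk2a (22.0). Regions in Map4k4, a kinase, and Creb3l1, a transcription factor of the secretory pathway, near Apcdd1, a Wnt inhibitor, and near Trdmt1, an RNA methyltransferase, all had 19.5. The widest members were 675 bp in an exon of Gja5, a connexin, 642 bp at the promoter of 9230020A06Rik, 617 bp near Ier3, an immediate early gene, and 595 bp near Tex33.

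The regions open only in P0.5 epithelium lay mostly away from gene starts. Promoters, within 2 kb of a start site, held 615 members (7.18%, 6.65 to 7.74), gene bodies 4706 (54.9%, 53.9 to 56.0), distal stretches within 50 kb of a gene 2037 (23.8%, 22.9 to 24.7) and intergenic DNA 1210 (14.1%, 13.4 to 14.9). The promoter share of the other regions of P0.5 epithelium was 36.8%, and the members were 29.6 percentage points lower (95% Newcombe interval of the difference −30.3 to −28.9). Peak strength, which goes with the choice of members, differs between these sets. Values within bands of strength are therefore given as a description, and the q value of regions without a P0.5 epithelium peak comes from another list. Within such bands the members were lower by 6.12 points (−7.64 to −4.61) among peaks with −log10 q under 3, and by 51.5 points (−54.1 to −47.4) among those over 10. Against regions open only in E14.5 epithelium the promoter share was lower by 3.37 points (−4.03 to −2.68) and the intergenic share was higher by 3.52 points (2.70 to 4.37). The promoter difference from that set held 0 among peaks with −log10 q between 6 and 10 (−0.75 points, −2.53 to 1.31) and over 10 (0.44 points, −2.34 to 4.65). Over 10 the intergenic share of the members was 26.7% against 14.1%, a difference of 12.6 points (6.68 to 19.2). Against the 4219 regions open in both epithelium lists and no fiber list, the promoter difference of −0.45 points held 0 (−1.45 to 0.50) and the intergenic share was lower by 4.70 points (−6.10 to −3.32). Within each band of strength the intergenic difference held 0, from −2.59 points between 6 and 10 to 3.01 points over 10. The median distance to a start site was 26.1 kb for the members, 20.8 kb for regions open only in E14.5 epithelium and 34.3 kb for those open in both epithelium lists. Of the 4706 gene-body members, 15.3% had their summit in an exon.

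**Figure D1:**
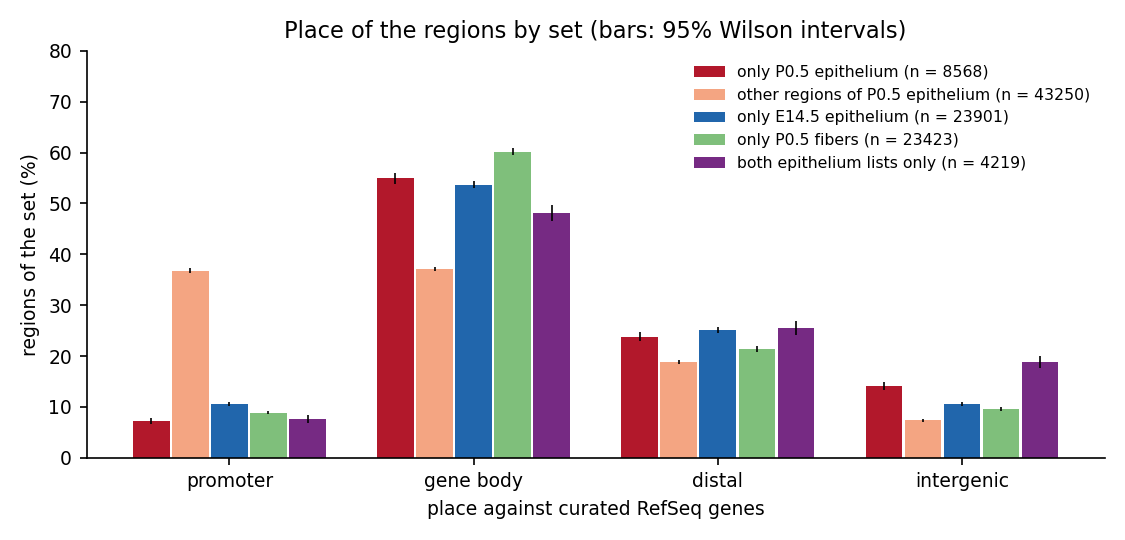
Share of regions (%) at promoters, in gene bodies, in distal stretches and in intergenic DNA for 5 sets of merged regions, with 95% Wilson intervals as thin lines. The members reach 7.18% at promoters and 14.1% in intergenic DNA, between the regions open only in E14.5 epithelium (10.6%) and those open in both epithelium lists (18.8%).

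In base composition the members were near the average. The median GC content of the 200 bp window was 53.0%, against 52.0% in regions open only in E14.5 epithelium, 50.5% in those open in both epithelium lists, 54.5% in those open only in P0.5 fibers and 56.5% in the other regions of P0.5 epithelium. Soft-masked repeat filled over 50% of the window in 2.91% of members and none of it in 53.2%.

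The NF1 single site was more frequent in these regions than in the other regions of P0.5 epithelium or in regions open only in E14.5 epithelium. It was found in 1282 members, or 14.96% (14.2 to 15.7), against 10.9% of all merged regions, 10.3% of the other regions of P0.5 epithelium and 10.96% of regions open only in E14.5 epithelium. The members were higher by 4.63 points (3.84 to 5.45) than the other regions of P0.5 epithelium and by 4.005 points (3.16 to 4.87) than regions open only in E14.5 epithelium. Regions open in both epithelium lists had 14.4%, and the difference of the members from them, 0.57 points, held 0 (−0.74 to 1.86). The looser palindrome was found in 2.81% of members (2.48 to 3.18), in 1.72% of the other regions of P0.5 epithelium, in 0.833% of regions open only in E14.5 epithelium and in 0.884% of those open only in P0.5 fibers. It was in 2.61% of the regions open in both epithelium lists, which the members exceeded by 0.21 points with an interval that held 0 (−0.41 to 0.78), and in 2.33% of the 644 regions open in both P0.5 lists only. Regions open in all 4 lists had 1.45%, and regions open only in E14.5 fibers 0.713%. Within a lower, middle and upper range of GC content (limits 50.5% and 55.5%) the share of the members was 2.47%, 2.89% and 3.13%, above both compared sets in each range with intervals free of 0. The full palindrome was rare, with 12 members (0.140%), and the 2 forms were in 0.0372% and 1.14% of all merged regions.

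The members with NF1 letters were most frequent among the strongest peaks. The looser palindrome was in 1.78% of the 3487 members with −log10 q under 3, in 3.09% of the 2004 between 3 and 4, in 2.51% of the 1989 between 4 and 6, in 5.10% of the 882 members between 6 and 10, and in 10.7% of the 206 members over 10 (7.16 to 15.6). Regions open only in E14.5 epithelium had 0.773% under 3 and 0.35% over 10, with 5 of 1430 regions. Over 10, the other regions of P0.5 epithelium had 1.64% and regions open in both epithelium lists 3.35%. This form of the palindrome was added after the data were seen, so these shares are a description. The difference from regions open in both epithelium lists held 0 under 3 (0.43 points), between 3 and 4 (0.87 points) and between 4 and 6 (−0.0087 points), and that from the other regions of P0.5 epithelium held 0 under 3 (0.06 points). For the single site, 29.6% of the members over 10 held it, against 10.7% in regions open only in E14.5 epithelium and 18.9% in both epithelium lists.

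**Figure D2:**
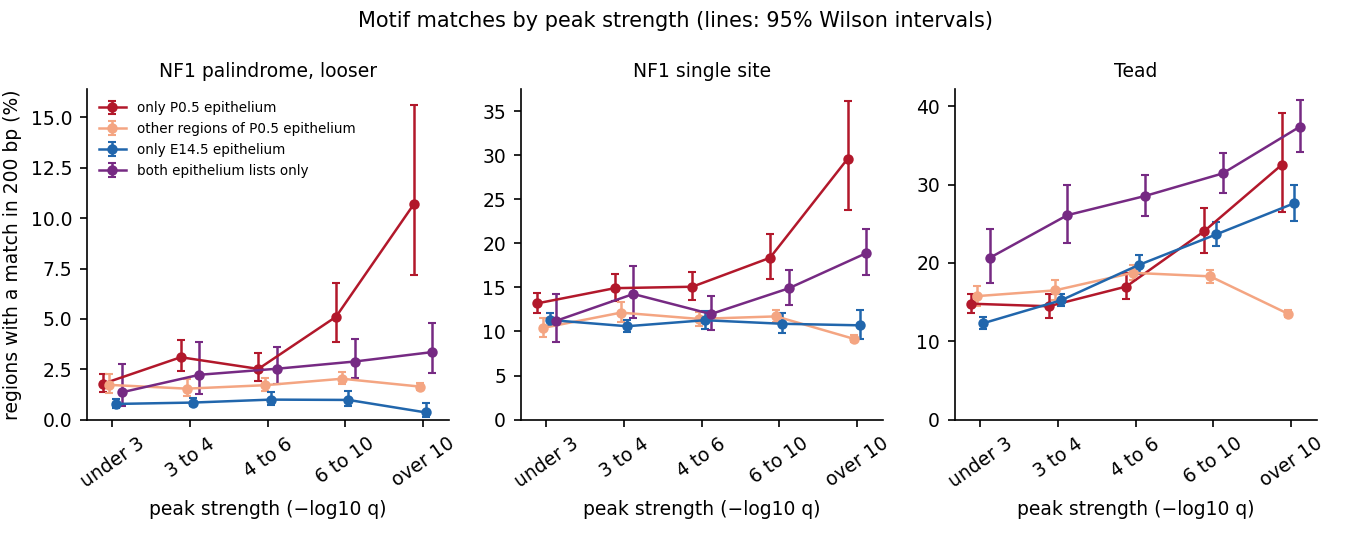
Share of regions (%) with a motif match in the 200 bp window, by peak strength as −log10 q, for the members and 3 other sets, with 95% Wilson intervals. The looser NF1 palindrome is in 1.78% of the weakest and 10.7% of the strongest members and lies above the other sets over 10, while for Tead the members over 10 (32.5%) lie between regions open only in E14.5 epithelium (27.6%) and those open in both epithelium lists (37.4%).

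The palindrome lay close to the summits. Members held 3.73 matches per 1000 regions and 20 bp within 60 bp of the summit, and 0.759 at 140 to 200 bp from it. Inside that range the matches fell into 2 flanks, with 47 matches at 20 to 40 bp on the left of the summit and 70 at 20 to 40 bp on its right, against 16 and 18 in the 20 bp on either side. The other regions of P0.5 epithelium, whose summit is that of their strongest peak in any list, had the same 2 flanks at a lower level (149 and 136 matches, with 60 and 60 next to the summit). Regions open only in E14.5 epithelium had 0.920 matches per 1000 regions and 20 bp within 60 bp and 0.586 at 140 to 200 bp, without the flanks, with 26 and 26 matches there and 29 and 19 next to the summit. Of the 243 matches in members, 2.06% lay in soft-masked repeat. The 241 members with the palindrome were assigned to 193 genes, and 4 genes had a pair of them: Adgrf1, Bcl6, Megf11 and Wwox. Those members were at promoters in 4.15% and in intergenic DNA in 18.3%.

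**Figure D3:**
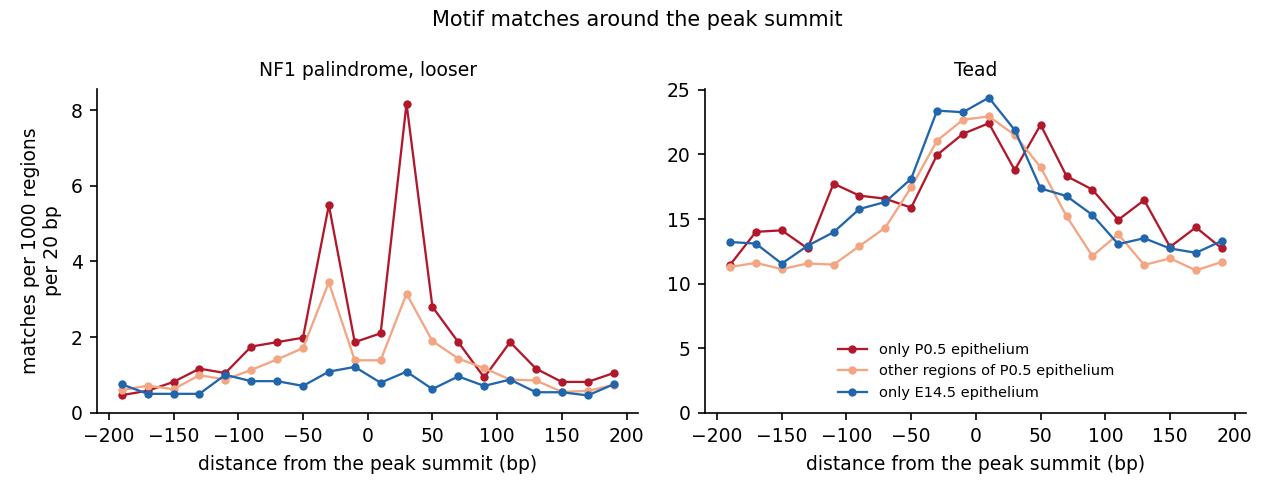
Matches per 1000 regions in bins of 20 bp, by distance (bp) of the match from the peak summit, for the looser NF1 palindrome and for Tead in 3 sets of regions. The palindrome has a peak on each side of the summit in members (5.49 and 8.17) and in the other regions of P0.5 epithelium (3.45 and 3.14) and has no such pair in regions open only in E14.5 epithelium (1.09 on both sides), while Tead has a single broad rise in all 3 sets.

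Over all peak strengths the difference in Tead letters from regions open only in E14.5 epithelium held 0. GGAATG was in 1423 members (16.6%, 15.8 to 17.4), in 16.9% of regions open only in E14.5 epithelium and in 13.7% of all merged regions. The difference of the members from regions open only in E14.5 epithelium, −0.27 points, held 0 (−1.18 to 0.66), while within bands of strength it went both ways, with 2.49 points (1.098 to 3.92) at −log10 q under 3 and −2.75 points (−4.79 to −0.65) between 4 and 6. The share was 29.9% in regions open in both epithelium lists, 13.3 points above the members (interval of members minus that set −14.9 to −11.7). Within bands of strength that gap was −5.86 points under 3, −11.6 between 3 and 4 as between 4 and 6, −7.40 between 6 and 10, and −4.92 points over 10, where its interval held 0 (−11.8 to 2.49). The share was 11.1% in regions open only in P0.5 fibers. The difference from the other regions of P0.5 epithelium was 0.96 points (0.11 to 1.83), but outside promoters the members were lower by 3.13 points (−4.07 to −2.17). By strength, with promoters included, the difference was −0.97 points under 3 and −1.75 points between 4 and 6, where both intervals held 0. It was −2.03 points between 3 and 4 and 5.74 points between 6 and 10. Over 10 the members had 32.5% against 13.5%. Promoters made up 5.83% of the members over 10 and 57.3% of the compared regions over 10. The difference within bands was not tested outside promoters. There were 11 members with 3 or more Tead matches. Beside the ones printed, they lay near Syk, a kinase, Pdgfb, a growth factor, 4930428D20Rik and Mir3109, in Nfia and in Sorcs2, and in 2 intergenic stretches. NF1 and Tead letters were found together in 267 members, and 69.7% of the members held neither. Among members with a Tead match 18.8% had an NF1 single site or palindrome, and among those without one 16.4%.

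AP-2 letters were in 10.05% of members, in 9.52% of regions open only in E14.5 epithelium and in 16.6% of the other regions of P0.5 epithelium, which have a higher GC content. The first difference held 0 (−0.20 to 1.28), and the second was −6.60 points (−7.31 to −5.86). The second was −1.22, −1.21 and −7.84 points in the lower, middle and upper range of GC content, where the middle value held 0. It was −2.66 to −1.47 points in the bands of strength under 10, the last of these, between 6 and 10, holding 0 (−3.57 to 0.94). Over 10 it was −12.9 points (−15.8 to −8.51). Regions open in both epithelium lists had 13.1%, and the members were lower by 3.06 points (−4.28 to −1.88). In each band of strength under 10 that difference held 0, with values from −2.34 to −1.17 points, and over 10 it was −7.19 points (−11.0 to −2.28). Of the 27 motifs searched, 5 were above and 3 below the regions open only in E14.5 epithelium with an interval free of 0, and 19 held 0. The looser NF1 palindrome is not among the 27. Beside the NF1 single site and full palindrome, the homeobox letters TAATTA (2.86% against 1.95%), the T-box letters AGGTGT (11.1% against 10.2%) and the octamer ATTTGCAT (0.864% against 0.636%) were above. Regions open in both epithelium lists had 2.80%, 5.66% and 1.09% of these 3, and the homeobox and octamer differences of the members from them held 0. The other regions of P0.5 epithelium had 1.72%, 6.05% and 0.976%, and regions open only in P0.5 fibers 0.871%, 14.7% and 0.401%. The CTCF letters (CC, 3 free bases and AGGGGGC) were below, with 0.537% against 1.28%, a difference of −0.74 points (−0.94 to −0.52). Runx letters TGTGGT (14.9% against 16.1%) and Fox letters TGTTTAC (1.87% against 2.54%) were below too. Of all merged regions, 10.7% held the AP-2 letters, 1.84% the homeobox, 9.37% the T-box, 0.756% the octamer, 1.39% the CTCF, 15.6% the Runx and 2.18% the Fox letters. A match of this kind is a string of letters and not a bound site.

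A single stretch of chromosome 17 held many members side by side. In 50 kb bins, at least 5 members were found in each of 10 bins in a row, from chr17:30450001-30950000, and no other place had 2 such bins in a row. The stretch held 77 members (0.899% of all), 93 regions open only in P0.5 fibers and 61 regions open in both P0.5 lists only, which are 9.47% of the 644 such regions in the genome. It held 1 region open only in E14.5 epithelium. The P0.5 epithelium list had 160 peaks there, with 21 in the 500 kb before it and 19 in the 500 kb after it, and the P0.5 fibers list had 167, 20 and 19. The E14.5 epithelium list had 14 peaks in it, with 39 on each side. Both P0.5 lists thus rise and fall at the same edges.

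Of the genes in the stretch, Dnah8, an axonemal dynein, had 45 members, Btbd9 16, Glp1r, the receptor of an incretin hormone, 9, Glo1, a glyoxalase that detoxifies methylglyoxal, 5, and 1700097N02Rik 2. The median −log10 q of these members was 4.26 and the highest fold enrichment 7.22. Of them, 10.4% held the NF1 single site. This segment is known to vary in copy number among laboratory mice. Extra copies of DNA and more open chromatin cannot be told apart in peak lists. Without the stretch there were 8491 members.

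**Figure D4:**
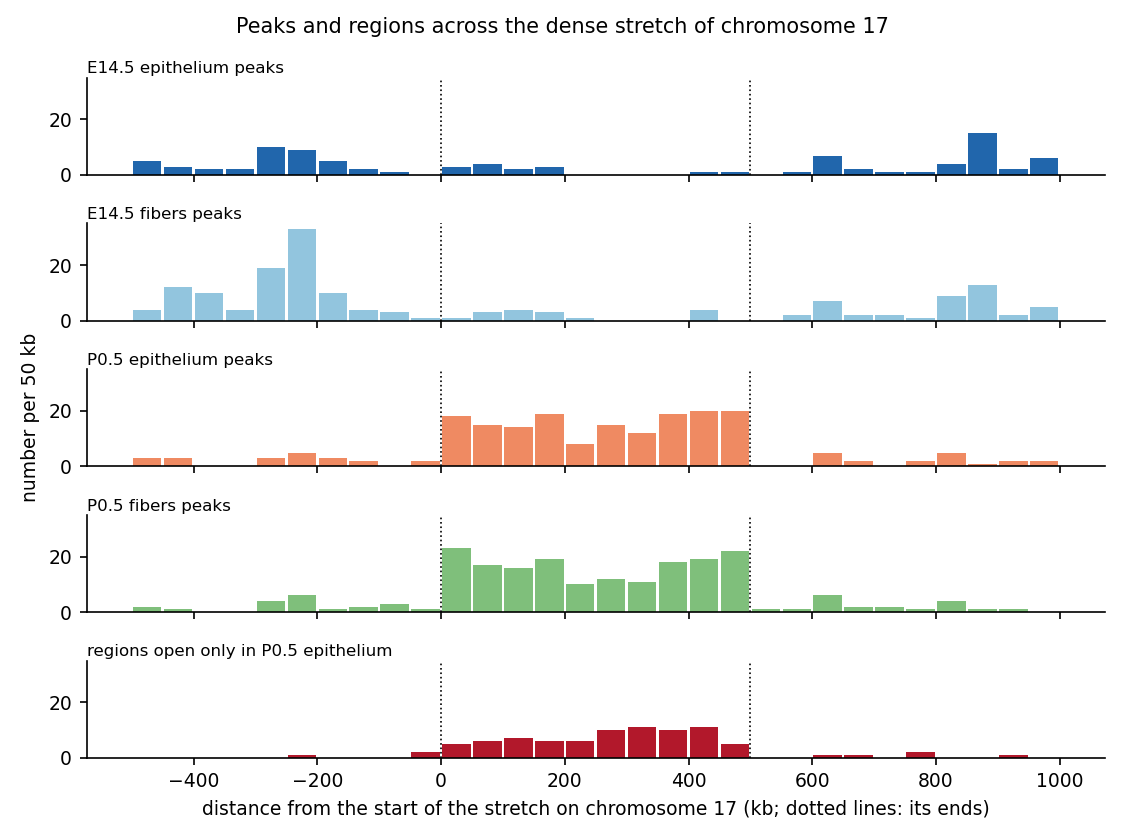
Number of peaks of each list and of members per 50 kb, by distance (kb) from the start of the dense stretch of chromosome 17, whose ends are dotted. Both P0.5 lists hold 8 to 23 peaks in every bin of the stretch, against 0 to 4 in both E14.5 lists.

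The members, those of the stretch included, were spread over many genes. By stepwise assignment 7358 members belonged to 4666 of the 19888 genes that had any region, and 3213 of these genes had a single member. Members were 4.30% of all regions assigned to a gene, and regions open only in E14.5 epithelium were 12.5%. Outside the stretch the most members were found at genes of 52.1 to 802 kb. Arhgef10l, a guanine nucleotide exchange factor, had 15 of 69 regions, Camta1, a calmodulin-binding transcription factor, 13 of 116, and Cacna1c, a calcium channel, 13 of 62. Rora, a retinoid-related orphan receptor, had 11 of 41 and Sorcs2, a sorting receptor, 11 of 109. Megf11, Cacna1b, Ldlrad4, Prdm16 and Tpcn2 had 10 each, Ccdc192 had 9 of 51, and Pmepa1, a target and inhibitor of TGF-beta signalling, had 9 of 39, the densest 200 kb window outside chromosome 17 (11 members). By share, among genes with at least 4 members, Bicc1, an RNA-binding protein, led with 5 of 9 regions. Actr3b, an actin-related protein, had 7 of 14, Ubac1 4 of 9, Ptgfrn 7 of 17, the copper transporter Atp7b 4 of 10, the homeobox gene Dmbx1 5 of 13 and Col9a1, a fibril-associated collagen, 4 of 11. Ccn1, a secreted matrix protein and a known Yap target, had 4 of 13, none of them with a Tead match. By chromosome the share of regions that were members went from 3.46% on X to 5.23% on chromosome 12.

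The 15 genes listed as regulators of lens epithelium had 4 members among 357 regions (1.12%, against 4.30% of all regions at genes), near Hes1, Six3 and Pknox1 and at the promoter of Tcf7l1. The list does not hold Tfap2a, and the 7 lens epithelium markers, which do, had 4 of 114 (3.51%). The 12 regulators of fibers had 3 of 198, near Mycn and Sox11, and the 16 crystallins had 1 of 128, in Crybb2. All of these had a −log10 q of 5.16 or less.

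Among the factors that read the motifs above, the 4 Nuclear factor I genes had 5 of 141 regions. They were 3 introns of Nfia, 1 of Nfib (−log10 q 6.10) and 1 of Nfix (5.16). The AP-2 genes had 5 of 54 (9.26%), 3 near Tfap2a and 2 near Tfap2c, with −log10 q of 2.59 to 3.40. The list of Tead factors, Yap and their partners had 11 of 438, of which Tead3 and Tead4 had 1 each, the cofactor Vgll4 2, the adaptor Amotl2 2, and the targets Ccn1 4 and Axl 1. Those at Ccn1, Axl and Amotl2 held no Tead match, while those at Tead3 and Tead4 and 1 at Vgll4 did.

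The BMP and TGF-beta list had 31 members among 866 regions (3.58%, against 4.30% of all regions at genes). They lay at 27 of 50 genes (54.0%), beside 40.2% of the genes of all 15 lists and 23.5% of all genes with a region. The count of genes depends on how many regions each gene has, and by region the list was not above all genes. By role, ligands had 9 of 178 regions, receptors 6 of 191, Smad proteins 6 of 212 and inhibitors 9 of 236. The inhibitors held the strongest of them. Nog, the extracellular BMP antagonist noggin, had 2 of 8 regions, the stronger at chr11:89299220-89299434 (−log10 q 12.4, fold enrichment 8.07), 1.29 kb from the gene. Chrdl1, a secreted chordin-like antagonist, had 1 in an intron at chrX:143338346-143338598 (12.4). Fst, follistatin, had 1 at its promoter (6.10). Inhba, an activin subunit, had 1 in the gene (8.09), and the transducer Smad3 had 3 in its introns (4.26 to 7.08).

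The Wnt list had 34 members among 964 regions (3.53%, against 4.30% of all regions at genes). They lay at 19 of 48 genes (39.6%, beside 23.5% of all genes with a region). By role there were 5 of 232 at ligands and their helpers, 7 of 205 at receptors, 8 of 202 at inhibitors and 14 of 325 at cytoplasmic and nuclear proteins. Wls, which carries Wnt ligands to the cell surface, had 3 of 10 regions, 2 of them strong (−log10 q 10.2 and 9.12, the second 95% soft-masked repeat). Rspo2, a secreted enhancer of Wnt signalling, had 1 (10.2), the inhibitor Dkk2 had 1 (7.08), and Tle3, a corepressor, had 5 of 65 (1.84 to 4.26). FGF and ERK genes had 17 of 476, with 3 at Fgfr2, a receptor of fiber differentiation, and Notch genes 14 of 531, with 3 at Maml2, none over 5.16.

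Genes of the capsule, the basement membrane that epithelial cells lay down, and of adhesion had 33 members among 1160 regions (2.84%), 19 of them at basement membrane genes. Laminin genes Lama1 (7.08, 87% repeat), Lamc1 (5.16) and Lamb1 (3 regions) and the collagen pair Col4a3 and Col4a4 (2 each, up to 6.10) were among them, as was the integrin gene Itga3 (3 of 15 regions). Cell cycle genes had 10 of 236 (4.24%, against 4.30% of all regions at genes), with 2 each at Ccnd1 and Ccnd3. The 9 cycle inhibitors had 0 of 37 regions, which are too few to tell 0 apart from that share. Retinoid genes had 8 of 318 and growth factor receptors 13 of 410, with 3 at Igf2r.

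Hormone receptors and their targets had the second highest share after the AP-2 genes, with 30 of 363 regions (8.26%, against 4.30% of all regions at genes). They lay at 15 of 24 genes (62.5%, beside 40.2% of the genes of all lists and 23.5% of all genes with a region). Rora alone had 11, from −log10 q 1.84 to 7.08, spread over its long gene body. Zbtb16, a target of glucocorticoids, had 5 of 56 regions, all between chr9:48729618-48739479. Pgr, the progesterone receptor, had 1 at its promoter (7.08), Ppard (7.08), Esr1 (6.10), Vdr (5.16), Thrb and Nr3c2 had 1 each in the gene, and Hr, a corepressor of the thyroid hormone receptor, had 1 at its promoter (4.26). All 15 lists together had 218 of 6615 (3.296%).

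**Figure D5:**
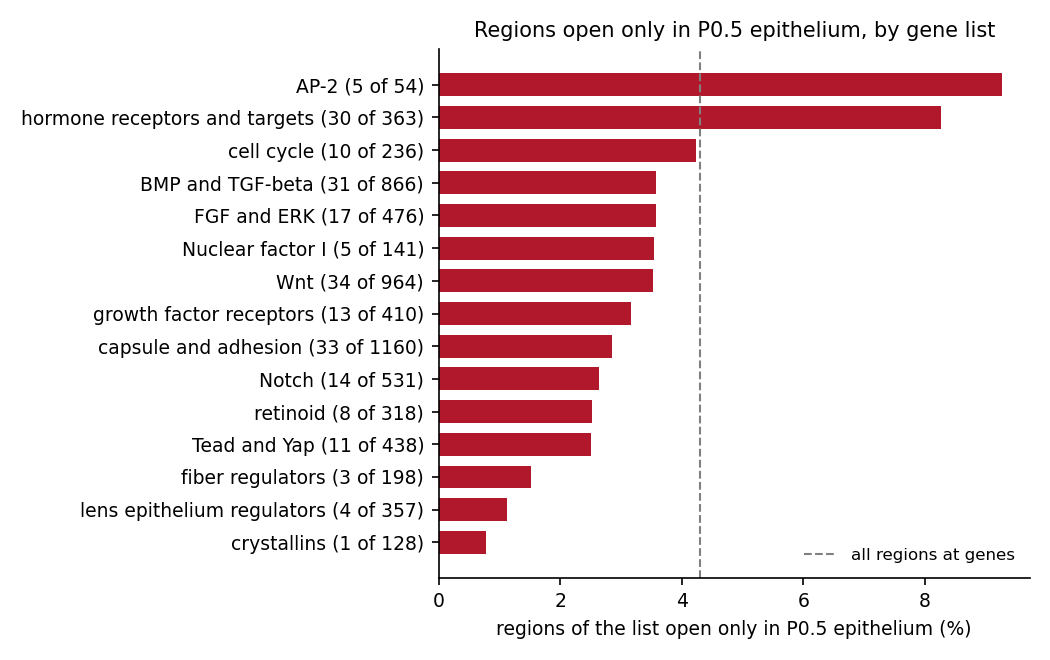
Share of regions (%) open only in P0.5 epithelium among all regions assigned to the genes of each list, with the counts beside the names and all regions at genes as a dashed line. The AP-2 genes (9.26% of 54 regions) and the hormone receptors and targets (8.26%, 11 of the 30 at Rora) are the lists to the right of the line, at 4.30%.

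Few genes had a promoter open only in P0.5 epithelium. A gene was counted if its promoters held a P0.5 epithelium region and no region of another list, which was true of 124 of 26089 genes (0.475%), while 61.4% had a promoter region of P0.5 epithelium and 70.7% one of any list. Of these, 77 were protein-coding, 38 long non-coding and 8 microRNA genes, and 73 had a q value under 0.001. In order of strength, a ranking chosen after the values were seen, they began with Dynlt1c, a dynein light chain (−log10 q 12.4), 4930555G01Rik, Gm47708 and Gstm2, a glutathione transferase (each 11.3), Zfp456 (10.2), and Slc15a2, a peptide transporter, Ms4a4a and the chemokine gene Ccl6 (each 8.09). Dynlt1c, 4930555G01Rik, Gstm2 and Zfp456 belong to families of close copies, where reads can be placed at the wrong copy. The part of this in their calls was not tested. Many promoter members lay at genes with a second promoter region that was also open elsewhere. Iqsec2 (13.5), Robo2 and Tmod2 (10.2 each) were of that kind.

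The dissected epithelium can carry cells from around the lens. The lists of cell markers were compared by promoter calls, where P0.5 epithelium had a peak at 6 of 9 endothelial, 1 of 8 macrophage, 4 of 7 pigment cell, 3 of 7 surface epithelium, 8 of 8 mesenchyme, 3 of 4 muscle and 1 of 5 erythroid markers. E14.5 epithelium had 8, 3, 3, 3, 8, 3 and 2. Members were 4 of the 114 regions at lens epithelium markers (3.51%) and 1 of the 100 at fiber markers, beside 4.30% of all regions at genes. They were 9 of the 106 regions at endothelial markers (8.49%), with 3 at Cdh5, 3 at Erg and 1 each at Tie1, Emcn and Flt1, and 5 of the 35 at surface epithelium markers (14.3%), with 2 at Trp63 and 1 each at Krt5, Krt14 and Krt8. No list called the promoters of Krt5, Krt14, Krt12 or Trp63. The promoter of Tyrp1, a pigment cell enzyme, was called only in P0.5 epithelium, while that of Tyr was called in no list. The other cell types named here had 0 to 3 members. The part of such cells in these regions was not tested.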

How the data were processed

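ATAC-seq libraries of lens epithelium and fibers at E14.5 and P0.5 (8 libraries, 2 a group) were analysed from the 4 peak lists. Per the study's methods and the submitters' processing notes, the authors trimmed reads (Trim Galore 0.4.1), aligned them to mm10 (Bowtie2 2.3.3.1), removed mitochondrial and duplicate reads (SAMtools 1.2, Picard 2.1.1) and called peaks on the pooled libraries of a group with MACS2 2.1 on paired fragments at q 0.05. The deposited columns hold a score, the fold enrichment as a ratio to local background, the −log10 p-value and the −log10 q-value. Read depth is not in the lists, so none is given, and replicate spread could not be had from them. The paper reports an average depth and high correlations between replicates.

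Lists were merged (bedtools 2.31.1, 10 bp) and peaks off chromosomes 1 to 19 and X were left out. A region was placed by any overlap, in the order given, with 45756 curated RefSeq transcripts of GRCm38.p6: promoter (up to 2 kb from a start), then gene body, then distal (up to 50 kb outside a gene), else intergenic. Motifs were searched on both strands in 200 bp around the summit of a region's strongest peak (python 3.11.15, pysam 0.24.0). In regions shared between lists that peak can come from a list other than P0.5 epithelium, while the bands of strength use the P0.5 epithelium peak where there is one. Shares carry 95% Wilson intervals and differences Newcombe intervals, which cover counting error only and are not adjusted over the 27 motifs. The code was tested on simulated data. Alternatives changed the merge distance, q value, window, GC range, promoter width and transcripts.

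The members and the gene lists were chosen with earlier results of these data known. Named genes are those at the 10 strongest and widest members, the 15 with the most members or the highest share, at the 5 densest 200 kb windows, at the rule's limits, at the 10 strongest members with an NF1 palindrome or 3 Tead matches, and those with a member in the gene lists. Other genes in the text, at promoter members, at the looser palindrome and in the cell marker lists, were named after their values were seen. One list of cell markers is not reported here.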

Additional observations from a re-analysis of the deposited data

How the results depend on the processing

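No paired analysis was possible because each list pools both libraries of its group, and no library could be left out. The number of regions was 5201 with a merge distance of 1000 bp and 5081 when the P0.5 epithelium peak needed a q value under 0.001 and any call elsewhere excluded, against 8568, and 12845 with lists cut to equal length. The NF1 single site stayed above both compared sets with intervals free of 0 in all alternatives run (1.09 to 6.501 points above the other regions of P0.5 epithelium and 1.98 to 5.37 above regions open only in E14.5 epithelium). The lowest of each range is the looser palindrome, chosen after seeing the data. The promoter differences kept their direction (−32.4 to −28.5, −6.32 to −0.72 and −12.6 to −8.02 points against the other regions of P0.5 epithelium, regions open only in E14.5 epithelium and all other regions). The Tead difference from the other regions of P0.5 epithelium reversed to −0.31 points in 100 bp windows, with an interval that holds 0 (−0.97 to 0.38), and free of 0 to −3.13 outside promoters, and −3.51 and −4.77 in the lower and middle range of GC content. That from regions open only in E14.5 epithelium turned to 0.26 points in 400 bp windows, 1.32 in the lower and 0.26 in the upper GC range, all with intervals that hold 0. The full NF1 palindrome passed 0 against the other regions of P0.5 epithelium with 0.073 points (100 bp), 0.090 (400 bp), 0.14 (q under 0.001), 0.15 (lower GC range) and 0.11 (merge distance of 1000 bp), and no longer did so against regions open only in E14.5 epithelium in the upper range, at 0.080. AP-2 no longer passed against the other regions of P0.5 epithelium in the middle range (−1.21) and passed against regions open only in E14.5 epithelium at q under 0.001 (1.19). The median GC content was 53.8% over whole regions and 52.5% at q under 0.001. A peak of another list was within 1 kb of 37.8%, 10 kb of 80.8% and 50 kb of 96.3% of members, and within 5 kb of 67.9% at q under 0.001. Genes with a promoter open only in P0.5 epithelium numbered 254 with all RefSeq transcripts and 73 at q under 0.001. The cause of these changes was not tested.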
